A study of Mus musculus with 4 samples.

Results

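The hnRNP and SR splicing proteins are described here in tumours from Hnrnpa2b1-knockout (KO) and wild-type (WT) MC38 cells, a mouse colon carcinoma line. Members were all genes whose symbol begins with Hnrnp, or with Srsf and a digit, without names that carry -ps. This gave 31 genes, 20 Hnrnp and 11 Srsf, of 55450 features. Another 2 rows with -ps names were left out. The KO group was 2 tumours grown under the skin of the left flank of 8-week-old C57BL/6J mice from Hnrnpa2b1 KO MC38 cells, and the WT group was 2 tumours from WT MC38 cells in mice of the same strain and age. The edit was in the injected cells, so host cells of both groups carried an unedited gene. The sources used here state neither where the gene was edited nor whether the KO cells were 1 clone. Tumours were digested without a stated sort and profiled by the 10x Genomics droplet method, which counts unique molecular identifiers (UMIs), one for each captured RNA molecule. Whether the tumours of a group came from separate cultures is not stated, so p-values measure the spread between these tumours.

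HnRNPs are RNA-binding proteins that coat nuclear transcripts and take part in splice-site choice, export and stability. SR proteins carry arginine- and serine-rich tails and mostly favour the use of exons they bind, where hnRNPs of the A/B type often oppose it. Many genes of both families control their own RNA through exons that send the transcript to nonsense-mediated decay, and cross-control between A/B-type paralogues is known. Hnrnpa2b1 encodes the A2 and B1 proteins, and its nearest relatives among the members are Hnrnpa1 and Hnrnpa3.

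All 31 members were found as protein-coding genes in the GENCODE vM21 annotation of GRCm38, spread over 16 chromosomes. Hnrnpa2b1 (ENSMUSG00000004980) lies on the minus strand at chr6:51460932-51469894. Hnrnpa1 (ENSMUSG00000046434) lies on the plus strand at chr15:103240432-103246692, and Hnrnpa3 (ENSMUSG00000059005) on the plus strand at chr2:75659261-75669407. Aligned over the longest annotated coding sequences, Hnrnpa2b1 shared 71.7% of aligned bases with Hnrnpa3, 71.3% with Hnrnpa1 and 56.9% with Hnrnpa0. The figures for Hnrnpd, Hnrnpdl and Hnrnpab were 54.8%, 54.7% and 53.2%. The longest identical run with any of the 6 was 18 bases, with Hnrnpa1. Over whole gene spans, a gene on the same strand overlapped 6 members, among them Hnrnpa3 and Hnrnpul2. The counts of these can depend on how shared reads were assigned. A gene on the other strand overlapped 12 members.

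The promoters of the edited gene and its nearest relatives are shown because the results turn on whether these 3 RNAs moved together. They are the RefSeq windows of GRCm38.p6, 250 bases before to 50 after the start, written along the gene's strand. Capitals mark CCAAT and TGACGT on either strand.
Hnrnpa2b1, minus strand, chr6:51469845-51470144: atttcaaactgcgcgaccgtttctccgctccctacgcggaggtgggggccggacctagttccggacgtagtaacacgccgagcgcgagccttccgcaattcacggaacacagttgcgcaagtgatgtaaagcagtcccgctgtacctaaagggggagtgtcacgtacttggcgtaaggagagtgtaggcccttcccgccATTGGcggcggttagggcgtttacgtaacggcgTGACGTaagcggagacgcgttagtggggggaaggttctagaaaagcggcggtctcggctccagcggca
Hnrnpa1, plus strand, chr15:103240147-103240446: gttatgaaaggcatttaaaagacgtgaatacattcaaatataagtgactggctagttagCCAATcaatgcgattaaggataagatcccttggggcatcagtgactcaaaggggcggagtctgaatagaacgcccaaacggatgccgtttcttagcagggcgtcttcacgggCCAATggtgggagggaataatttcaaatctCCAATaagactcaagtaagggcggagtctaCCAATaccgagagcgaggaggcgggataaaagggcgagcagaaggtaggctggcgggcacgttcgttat
Hnrnpa3, plus strand, chr2:75659009-75659308: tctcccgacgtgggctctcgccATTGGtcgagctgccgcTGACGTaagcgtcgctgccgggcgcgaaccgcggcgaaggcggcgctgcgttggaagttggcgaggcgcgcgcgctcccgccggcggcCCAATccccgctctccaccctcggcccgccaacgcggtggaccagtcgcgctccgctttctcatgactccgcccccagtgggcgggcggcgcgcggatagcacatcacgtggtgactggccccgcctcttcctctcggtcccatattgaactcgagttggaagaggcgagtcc
Among the 29 member promoters in the table, 16 (55.2%) held CCAAT, against 37.9% of all 27025 promoters. TGACGT was found in 8 (27.6%), against 7.64% of all. GGGCGG, searched in the same way, was in 79.3% of member promoters and 35.9% of all. TATAAA was in 13.8% and 14.2%, and CACGTG in 13.8% and 7.24%. None of these motifs contains another. The median GC content was 68.3% in the member windows and 52.7% in all. These matches are a description of the letters in the windows, and were not tested.

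After filters 8648 and 8771 cells remained in KO tumours 1 and 2, and 11344 and 10173 in WT tumours 1 and 2. Pairs of libraries shared 23 to 43 cell barcodes. The injected cells were approached through Xist-low cells, clusters with almost no Xist, the RNA of the inactive X chromosome, and almost no Ptprc, the gene of the leukocyte antigen CD45. Epithelial markers did not define these cells: the 12 fixed markers summed to 56.1 and 58.2 CPM (UMIs of a gene per 1000000 UMIs) in KO tumours, and 47.7 and 40.3 CPM in WT tumours. The class held 1252 and 2521 cells in KO tumours and 8165 and 6610 in WT tumours. Their cells were deeper in KO tumours, at median totals of 40901.5 and 32460 UMIs, against 12275 and 12421 in WT tumours. Cluster 0 held 89.7% and 89.45% of them in KO tumours, but 6.82% and 13.63% in WT tumours. Classes rebuilt from markers can differ from those of the submitters.

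Hnrnpa2b1 was the 1 member called lower by edgeR in Xist-low cells, and no member was called higher. It reached 358 and 325 CPM (after TMM scaling, as in all tests) in KO tumours, against 565 and 548 CPM in WT tumours. The groups did not overlap, but RNA of the edited gene was far from absent. Where the counted reads lie relative to the edit is not stated, so this level does not measure the loss of the protein. The log2 fold change was -0.71 (standard error 0.13, edgeR adjusted p = 0.030). The other 29 members tested passed in neither direction, so 1 of 30 was called, while 8.45% of the 18018 genes tested were called. Unadjusted p-values under 0.05 were found for 4 members, 2 of them higher, and for 29.4% of all genes. DESeq2 called 2 of 30 members, of which 1 was higher, and 2710 of the 18018 genes. Leaving out KO tumour 1 ended the call (log2 -0.77, edgeR adjusted p = 0.0901), as did leaving out KO tumour 2 (-0.64, adjusted p = 0.171). It was also lost among cells without a UMI of 6 cycle genes, thinned to 5000 UMIs (-0.55, adjusted p = 0.0576).

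Hnrnpa3, which packages nuclear RNA as a close relative of A2/B1, had the highest fold change of the members. It stood at 357 and 397 CPM in KO tumours, against 288 and 278 CPM in WT tumours. Both KO tumours were above both WT tumours, yet the log2 difference of 0.41 (standard error 0.13, 95% interval 0.12 to 0.71) did not pass (edgeR adjusted p = 0.0852). DESeq2, which called 2710 of 18018 genes, called it (0.42, adjusted p = 0.0127). So did edgeR in the cells without cycle-gene UMIs (0.68, adjusted p = 0.0253), where 677 of 11403 genes were called. Over all 17 settings run, the difference was positive and lay between 0.24 and 0.68.

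Hnrnpa1, the most studied A/B-type splicing repressor, stood at 776 and 879 CPM in KO tumours, against 646 and 702 CPM in WT tumours (log2 0.30, standard error 0.14, edgeR adjusted p = 0.219). Hnrnpd, also known as AUF1 and a binder of AU-rich elements, held 228 and 246 CPM in KO tumours, against 209 and 173.5 CPM in WT tumours (0.31, standard error 0.14, adjusted p = 0.189). For both genes the groups did not overlap, and neither passed. Within cluster 0 Hnrnpd overlapped at 232 and 246 CPM in KO tumours and 256 and 229 CPM in WT tumours, and over the 17 settings its difference lay between -0.02 and 0.65. Hnrnpab, another RNA-binding protein of this type, overlapped between groups at 554 and 622 CPM in KO tumours and 562 and 459 CPM in WT tumours. Hnrnpdl held 147 and 133 CPM in KO tumours, and 129.8 and 129 CPM in WT tumours. Hnrnpa0 held 269 and 309.5 CPM in KO tumours, and 309 and 292 CPM in WT tumours. The last 2 had log2 differences of 0.11 and -0.05 (edgeR adjusted p = 0.547 and 0.816).

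Among the SR genes, Srsf7, which links splicing to mRNA export, held 314 and 301 CPM in KO tumours, against 251 and 245 CPM in WT tumours (log2 0.31, standard error 0.12, edgeR adjusted p = 0.132). Srsf5 had the lowest value after Hnrnpa2b1, with 100.3 and 75.4 CPM in KO tumours, against 103 and 129.9 CPM in WT tumours (-0.41, standard error 0.18, adjusted p = 0.181). Hnrnpul2, a member of the group related to hnRNP U, held 120.2 and 123 CPM in KO tumours, against 146 and 147 CPM in WT tumours (-0.265, standard error 0.10, adjusted p = 0.151). None of these 3 passed, and each left no overlap between groups. Within cluster 0, however, Srsf7 overlapped at 319 and 304 CPM in KO tumours and 311 and 317 CPM in WT tumours, and over the 17 settings its difference lay between -0.01 and 0.46. Of 30 members, 10 were higher and 6 lower in both KO tumours than in both WT tumours, where 29.7% and 30.6% of all genes were. The fold change was positive for 18 of 30 members, with a median of 0.10, against -0.01 over all genes. In cells thinned to 5000 UMIs the members' median was 0.13, and 0.16 in those of them without cycle-gene UMIs. It was -0.05 at 20000 UMIs, -4e-04 at 30000 UMIs and -0.03 within cluster 0, which held most KO cells, so its sign differed among settings. Thinning to 30000 UMIs kept 916 and 1498 KO cells but 313 and 427 WT cells, so the cells kept changed along with the depth. The part of each was not tested. Srsf12 was the member that failed the count filter, with 0 and 0 UMIs in Xist-low cells of KO tumours and 1 and 0 in those of WT tumours.

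**Figure D1:**
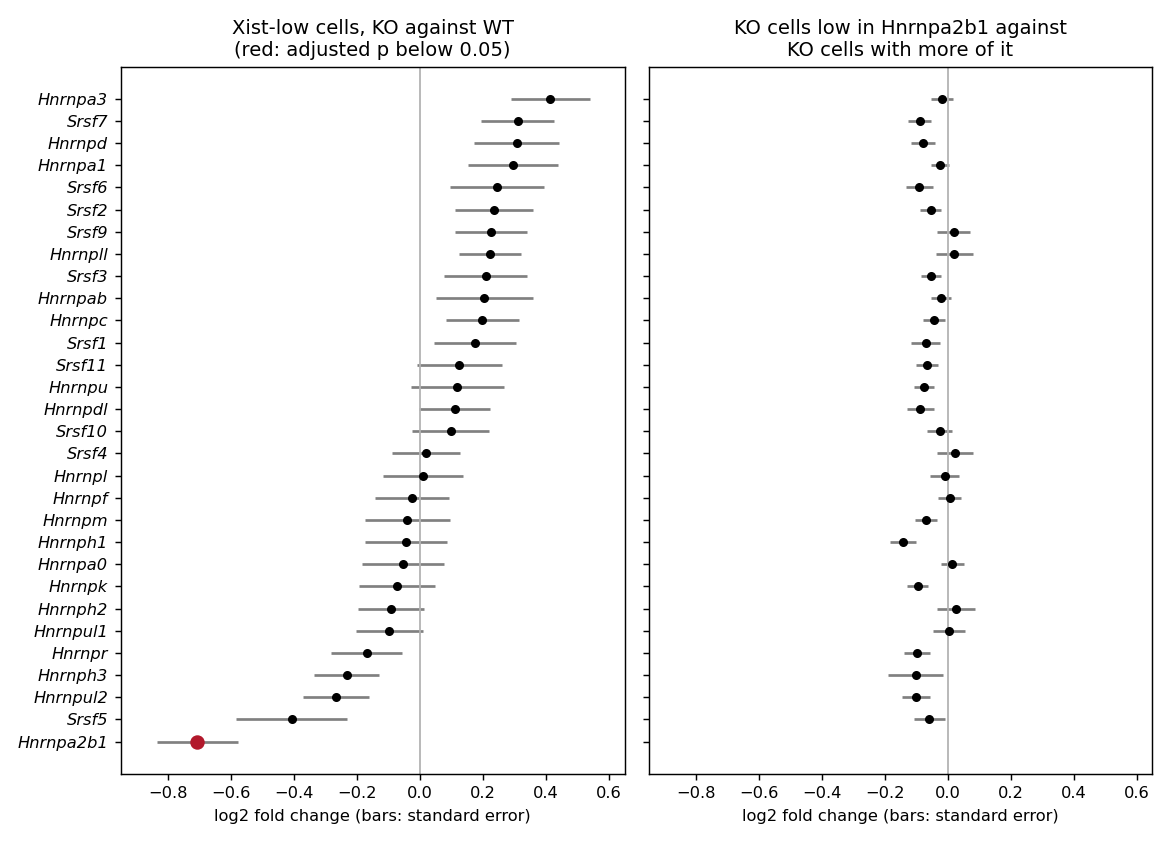
Log2 fold changes of the 30 tested members, with bars of 1 standard error, in Xist-low cells of KO against WT tumours (left) and in KO cells low in Hnrnpa2b1 against KO cells with more of it (right). Only Hnrnpa2b1, at -0.71, passed on the left, Hnrnpa3 has the highest value at 0.41, and on the right, where Hnrnpa2b1 chose the cells and is not drawn, the values lie between -0.14 and 0.03.

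The level of Hnrnpa2b1 differed among Xist-low cells of the KO tumours themselves. Cells with at least 30000 UMIs were thinned to that number, which left 916 and 1498 cells in KO tumours and 313 and 427 in WT tumours. At most 4 Hnrnpa2b1 UMIs were left in 267 (29.15%) and 506 (33.78%) of the KO cells, but in 5 (1.6%) and 7 (1.64%) of the WT cells. At least 8 UMIs were found in 540 (58.95%) and 800 (53.4%) of the KO cells, and in 292 (93.29%) and 397 (92.97%) of the WT cells. The cut is a range of a count and not a cell type: 109 and 192 KO cells lay between the limits. KO cells just inside the lower limit, with 3 or 4 UMIs, held 116 and 114 CPM of Hnrnpa2b1, and those just outside, with 5 to 7, held 200 and 202 CPM.

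**Figure D2:**
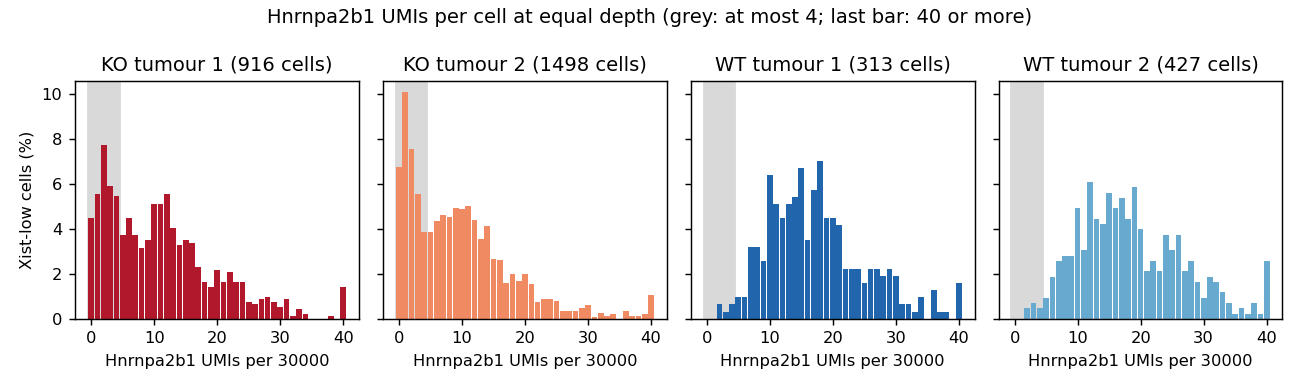
Share of Xist-low cells (vertical axis, percent) by the number of Hnrnpa2b1 UMIs per 30000 UMIs (horizontal axis), one panel per tumour, with the range of at most 4 UMIs in grey. The grey range holds 29.15% and 33.78% of cells in the KO panels, and 1.6% and 1.64% in the WT panels.

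KO cells low in Hnrnpa2b1 were compared with KO cells that had at least 8 UMIs, within each tumour, to ask whether other members are higher where this RNA is lowest. The cut left Hnrnpa2b1 at 67.7 and 58.6 CPM in the low cells, against 539 and 531 CPM in the others, which describes the choice. Hnrnpa3 held 382 and 408 CPM in the low cells and 378 and 422 CPM in the others. Its log2 difference was -0.02, with a 95% interval of -0.09 to 0.05 (edgeR adjusted p = 0.953). Hnrnpa1 held 787 and 906 CPM in the low cells and 795 and 926 CPM in the others (-0.02, interval -0.08 to 0.04, adjusted p = 0.917). For both, the low cells of one tumour lay closer to the other cells of that tumour than to cells of the other tumour. In WT tumours Hnrnpa3 also differed with Hnrnpa2b1, at 154 and 218 CPM in cells with 8 to 12 UMIs of it. In those with 18 or more it held 339 and 392 CPM. The comparison of low and high KO cells cannot tell a response to the edit from such variation among cells.

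No member other than Hnrnpa2b1 was called between low and high KO cells by edgeR, of 29 tested, and 0.216% of 13878 genes were called. At an unadjusted p under 0.05, 8 members were lower in the low cells and 0 higher, where 7.6% of all genes had such a p. Low and high sums came from the same 2 tumours, so these p-values measure the spread of that difference within tumours. Without the tumour as block, 1 of 30 members had such a p, with Hnrnpa2b1 counted, and 81 of 13878 genes. The differences of the 29 lay between -0.14 and 0.03, and their 95% intervals between -0.28 and 0.15. Hnrnph1, whose protein binds G-rich RNA, had the smallest p, with 197 and 196 CPM in the low cells, against 227 and 209 CPM in the others (log2 -0.14, standard error 0.04, edgeR adjusted p = 0.157). Of these members 22 had negative and 7 positive values, with a median of -0.05, against 0.00 over all genes. A UMI of at least 1 of 6 cycle genes was found in 98.9% and 100% of low cells, and in 100% and 99.9% of the others. Cluster 0 held 92.5% and 91.9% of the low cells, and 92.8% and 92% of the others. Median UMIs before thinning were 45167 and 37426 in the low cells, and 48613.5 and 38961 in the others.

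Set against WT cells at the same depth, the low KO cells showed no called member beside Hnrnpa2b1, where 1.16% of 13129 genes were called. Of the other 29 members, 3 had an unadjusted edgeR p under 0.05, where 18% of all genes had one. Hnrnpa3 had a log2 difference of 0.40 from WT cells in the low KO cells (edgeR adjusted p = 0.236) and of 0.42 in KO cells with at least 8 UMIs (adjusted p = 0.217). Both comparisons use the same WT cells, and in the second 1.0% of 13666 genes were called. The second was added after the first was seen. Cluster 0 held 92.5% and 91.9% of the low KO cells, but 10.2% and 34.7% of the WT cells. The part of this make-up in the differences was not tested.

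Cells at this depth were also put in bins by their Hnrnpa2b1 UMIs. In KO tumour 1, the bins of 0 to 2, 3 to 4, 5 to 7, 8 to 12, 13 to 17, and 18 or more UMIs held 387, 397, 344, 329.9, 373 and 477 CPM of Hnrnpa3. KO tumour 2 held 392, 399, 354, 374, 406 and 471 CPM. WT tumour 1 held 154, 205 and 339 CPM in the last 3 of these bins. WT tumour 2 held 218, 259 and 392 CPM there, and 169.6 CPM in 23 cells with 5 to 7 UMIs. Within WT tumours Hnrnpa3 was thus higher in each bin of higher Hnrnpa2b1, as a description. It was about as high in KO cells nearly without Hnrnpa2b1 as in those with 13 to 17 UMIs, and in every bin with values from all 4 tumours both KO values exceeded both WT values. Of all cells at this depth, cluster 0 held 92.9% and 92.4% in KO tumours, but 10.2% and 34.7% in WT tumours. The part of this make-up in the values was not tested.

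The other 30 members were also summed. In KO cells with 0 to 2 Hnrnpa2b1 UMIs they stood at 7335 and 7398 CPM, and in those with 18 or more at 8395 and 8079.65 CPM. Over the last 3 bins they reached 5398, 6006 and 7244 CPM in WT tumour 1, and 6594, 6893 and 8171 CPM in WT tumour 2, so the groups overlapped in the last bin. Median mitochondrial shares of the bins were 1.23% to 1.34% in KO tumours, 0.75% to 0.78% in WT tumour 1 and 1.38% to 1.49% in WT tumour 2. Bins of under 20 cells were left out, and few WT cells were this deep. At 20000 UMIs, 1275 and 1444 WT cells were kept. Cells with 2 or 3 Hnrnpa2b1 UMIs then held 361 and 377 CPM of Hnrnpa3 in KO tumours (180 and 355 cells). In WT tumours they held 175 and 193 CPM (40 and 44 cells). WT tumour 2 held 187 CPM in cells with 4 or 5 UMIs, so Hnrnpa3 did not rise with each bin there.

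**Figure D3:**
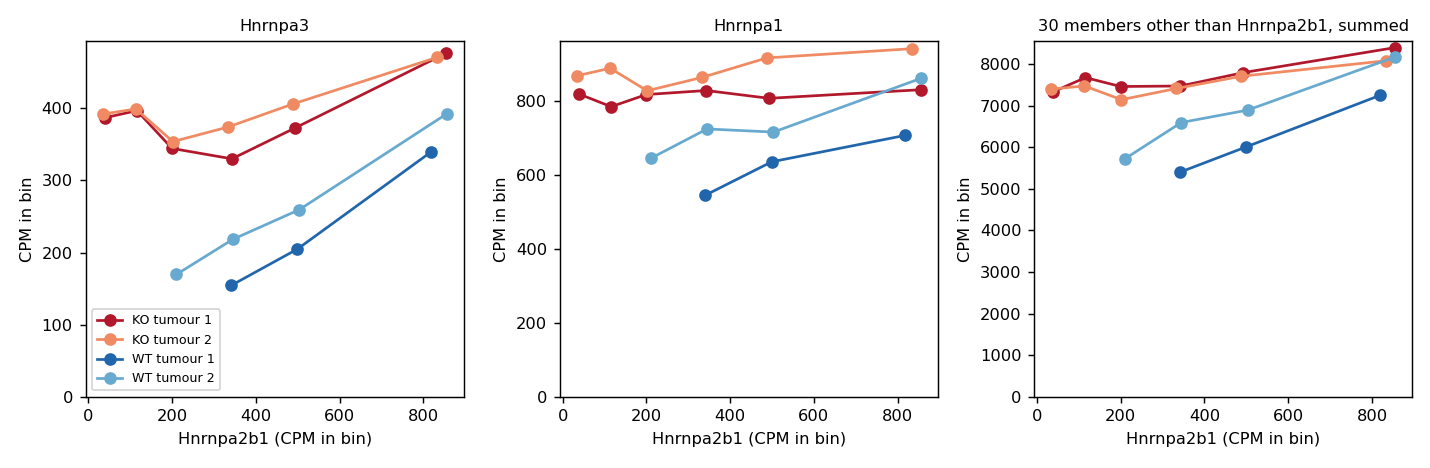
Level of Hnrnpa3, of Hnrnpa1 and of the 30 members other than Hnrnpa2b1 summed (vertical axes, CPM) against the level of Hnrnpa2b1 (horizontal axis, CPM) in bins of Xist-low cells thinned to 30000 UMIs, one line per tumour. The leftmost KO bins stand at 387 and 392 CPM of Hnrnpa3, whereas in WT tumours it runs between 154 and 392 CPM and is lowest at the left of each line.

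Within single clusters of Xist-low cells, the 2 genes stood in the same order as in the class. In cluster 0, with Gja4 and Nppb among its leading genes, Hnrnpa2b1 had 378 and 318 CPM (without TMM, as in all levels by cluster or class) in KO tumours, against 627 and 600.3 CPM in WT tumours. Hnrnpa3 there had 378 and 390.1 CPM in KO tumours, against 319 and 305 CPM in WT tumours. In cluster 1, led by Lbp and Prelp, Hnrnpa3 had 408 and 305 CPM in the 16 and 31 cells of KO tumours, against 173 and 183 CPM in the 1718 and 2194 cells of WT tumours. In cluster 3, led by histone genes, it had 372 and 405 CPM in KO tumours, against 318 and 341 CPM in WT tumours. Hnrnpa2b1 was lower, and Hnrnpa3 higher, in both KO tumours than in both WT tumours in clusters 0, 1, 2, 3, 21 and 24. Of these, cluster 21 held 4 and 11 KO cells. Cluster 24 held 12 and 6 KO cells and 6 cells of WT tumour 1, and 48.4% of its barcodes had high doublet scores. In cluster 5, with 24 and 12 KO cells, the groups overlapped for both genes. Within cluster 0 alone, the test gave Hnrnpa3 a log2 difference of 0.26 (edgeR adjusted p = 0.329) and Hnrnpa2b1 one of -0.86 (adjusted p = 0.0415).

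**Figure D4:**
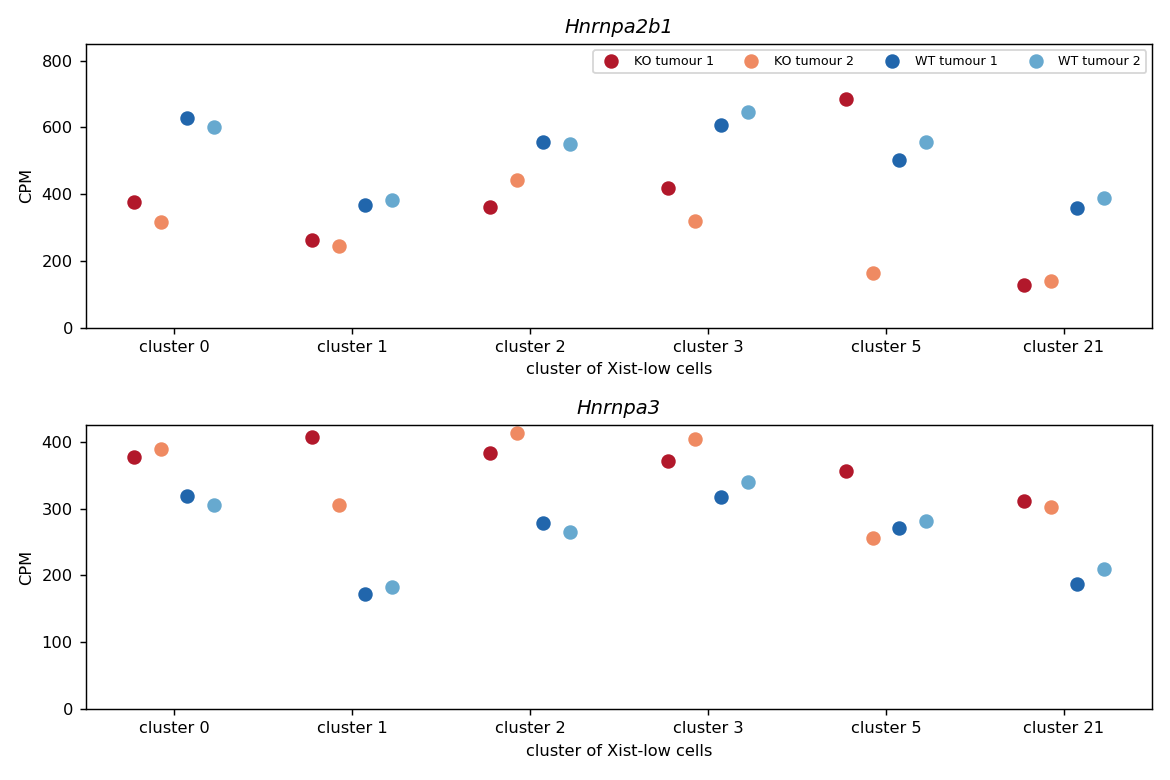
Levels of Hnrnpa2b1 (top) and Hnrnpa3 (bottom) in CPM, one point per tumour, in 6 clusters of Xist-low cells. KO points lie below WT points for Hnrnpa2b1 and above them for Hnrnpa3 in each cluster except cluster 5, where KO tumours held 24 and 12 cells. KO tumours held 16 and 31 cells in cluster 1, and 4 and 11 in cluster 21.

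In host cells, which keep the gene, Hnrnpa2b1 did not pass in any of 7 classes tested: mononuclear phagocytes, fibroblasts, dendritic cells, T and NK cells, and its CD8 T, CD4 T and NK subsets. Its log2 fold changes there ran from -0.27 to -0.12, all below 0 (edgeR adjusted p = 0.433 to 0.935). Its change in Xist-low cells was lower than that in T and NK cells by 0.55 (log2 -0.55, standard error 0.15, edgeR adjusted p = 0.0361). The difference from mononuclear phagocytes did not pass (-0.56, standard error 0.18, adjusted p = 0.0828). The first was lost with other size factors (-0.50, adjusted p = 0.0582), without a count filter (-0.44, adjusted p = 0.135), and when KO tumour 1 (-0.57, adjusted p = 0.324) or KO tumour 2 (-0.55, adjusted p = 0.232) was left out.

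NK cells were the host class with a called member. Hnrnpa1 fell there to 177 and 217 CPM in KO tumours, against 342 and 279.8 CPM in WT tumours (log2 -0.67, standard error 0.19, edgeR adjusted p = 0.0306). This was 1 of 30 members, where 6.5% of 8536 genes were called. At an unadjusted p under 0.05 there were 9 members, all lower in KO tumours, and 21.8% of all genes. Markers of other cells moved in the NK class as well. The 10 dendritic cell markers summed to 1940 and 2050 CPM in KO tumours, against 995 and 1130 CPM in WT tumours. Of these, 3 passed the count filter and 1 rose, while Flt3, Xcr1 and Cd209a were at 0 in every tumour. The 13 mononuclear phagocyte markers summed to 1970 and 1860 CPM in KO tumours, against 1460 and 1230 CPM in WT tumours, and 4 rose. Of 6 regulatory T cell markers 3 rose, and of 12 T and NK markers 2 fell. Their part in the fall of Hnrnpa1 was not tested. DESeq2 did not call it (adjusted p = 0.156). The edgeR call was lost when WT tumour 1 (-0.49, adjusted p = 0.265), KO tumour 1 (-0.50, adjusted p = 0.441) or KO tumour 2 (-0.79, adjusted p = 0.0866) was left out. Both KO tumours were below both WT tumours for 19 of 30 members in NK cells and above for 4, where 26.2% of all genes were lower and 26.2% higher. In CD8 T cells, 16 were lower and 2 higher, against 22.3% and 28.1% of all genes, and the median member stood at -0.21, against 0.02 over all genes. Mononuclear phagocytes had 15 lower and 5 higher, against 30.9% and 29.2%. T and NK cells had 17 lower and 3 higher, against 25.2% and 28.4%, and CD4 T cells 12 and 3, against 22.1% and 26.2%. Dendritic cells had 12 lower and 1 higher, against 20.3% and 22.9%, and fibroblasts 7 and 6, against 20.5% and 19.8%.

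No member was called in the other 6 host classes by edgeR or DESeq2, where 0.356% of 8432 genes were called in fibroblasts, 0.801% of 6489 in dendritic cells, 9.69% of 13822 in mononuclear phagocytes, 2.81% of 12271 in T and NK cells, 0.363% of 9907 in CD8 T cells and 0.695% of 7911 in CD4 T cells. At an unadjusted edgeR p under 0.05 there was 1 member in fibroblasts (9.07% of all genes), 1 in dendritic cells (13.6%), 6 in mononuclear phagocytes (28.9%), 5 in T and NK cells (22.6%), 3 in CD8 T cells (15.8%) and 6 in CD4 T cells (15.2%). Without phagocyte cluster 9, where 49.7% of barcodes had high doublet scores, edgeR called none of 13261 genes in that class. Hnrnpa1 in mononuclear phagocytes held 189 and 196 CPM in KO tumours, against 304 and 240.4 CPM in WT tumours (-0.50, adjusted p = 0.15). In CD4 T cells it held 190.1 and 189.6 CPM in KO tumours, against 288 and 283 CPM in WT tumours (-0.59, adjusted p = 0.170). Xist-low cells, where Hnrnpa1 was 3.23 times as high as in mononuclear phagocytes, made up 14.5% and 28.7% of cells in KO tumours and 72.0% and 65.0% in WT tumours. The part of free RNA from Xist-low cells in the host values was not tested. NK cells of KO tumours also held more UMIs, with medians of 3818 and 2681, against 2053 and 2188 in WT tumours, and the part of this depth was not tested.

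The KO-WT change was also compared between Xist-low and host cells by a test of the difference. Against T and NK cells, 7 of 31 members were called, where 8.29% of 17722 genes were. Higher in Xist-low cells were the changes of Hnrnpa1 (log2 difference 0.78), Srsf9 (0.76), Hnrnpd (0.73), Hnrnpa3 (0.61), Hnrnpab (0.59) and Srsf6 (0.56), with edgeR adjusted p between 0.0114 and 0.0390. Lower was that of Hnrnpa2b1. None of the genes with a higher change was called in either class alone. In T and NK cells their log2 fold changes ran from -0.55 (Srsf9) to -0.21 (Hnrnpa3). In Xist-low cells they ran from 0.20 (Hnrnpab) to 0.41 (Hnrnpa3). Against mononuclear phagocytes, 3 of 30 members were called, where 13.7% of 17601 genes were. Srsf1, the founding SR protein, had a higher change in Xist-low cells (0.62, standard error 0.16, edgeR adjusted p = 0.0421). Hnrnph3 (-0.60, adjusted p = 0.0456) and Hnrnph2 (-0.57, adjusted p = 0.0461), which encode relatives of hnRNP H, had lower ones. The median difference over all genes was 0.11 against mononuclear phagocytes and 0.03 against T and NK cells. The calls of both differences were not stable when 1 tumour was left out, which leaves 1 tumour in a group.

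Levels across classes are given as a description, since the clusters were made from these genes too. Summed over the 31 members, Xist-low cells held 8058 and 7745 CPM in KO tumours, and 7200.2 and 7166 CPM in WT tumours. Mononuclear phagocytes held 4636 and 4131 CPM in KO tumours, and 5073 and 4905 CPM in WT tumours. Of the 7 classes without overlap in cells, Xist-low cells had the highest mean of 19 members, CD8 T cells of 5, dendritic cells of 3, and CD4 T and NK cells of 2 each. Fibroblasts had the lowest mean of 19.

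The largest ratios of Xist-low cells to mononuclear phagocytes belonged to Hnrnpa1 (3.23), Srsf10 (3.16), a splicing repressor of the SR family, and Srsf4 (2.84). Srsf10 held 215 and 205 CPM in Xist-low cells of KO tumours and 199 and 178 CPM in those of WT tumours, and between 50.2 and 79.8 CPM in mononuclear phagocytes. Srsf4 held 52.6 to 61.6 CPM in the Xist-low cells of the 4 tumours and 15.6 to 26.7 CPM in the phagocytes. Neither range overlapped. The smallest ratios among members with more than a few UMIs were those of Hnrnph2 (0.63) and Srsf5 (0.72). Srsf5 held 106 and 74.2 CPM in Xist-low cells of KO tumours and 100.1 and 128 CPM in those of WT tumours, whereas NK cells held between 219.95 and 285 CPM. Srsf12 had 2 UMIs in the phagocytes and 1 in Xist-low cells, too few for a ratio, and 5 and 2 UMIs in NK cells of KO tumours, against 0 and 1 in those of WT tumours.

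Of these 7 classes, CD8 T cells had the highest mean of Hnrnpa2b1 and fibroblasts the lowest. Regulatory T cells, too few for a test, held 662 and 521 CPM in KO tumours, and 716 and 889 CPM in WT tumours, where 1 tumour had 44 such cells. CD8 T cells held 633 and 553 CPM in KO tumours, and 659 and 598 CPM in WT tumours. CD4 T cells held 468 to 723 CPM over the 4 tumours, NK cells 437 to 552 CPM and dendritic cells 428 to 550.1 CPM. These ranges overlap. Xist-low cells held 378 and 319.5 CPM in KO tumours, against 549 and 542 CPM in WT tumours. Mononuclear phagocytes held 411 and 326 CPM in KO tumours, and 411 and 428 CPM in WT tumours. Fibroblasts held 282 and 263 CPM in KO tumours, and 287 and 332 CPM in WT tumours. The highest mean of Hnrnpa3 was in CD8 T cells, with 450 and 470.4 CPM in KO tumours, and 669 and 464 CPM in WT tumours.

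**Figure D5:**
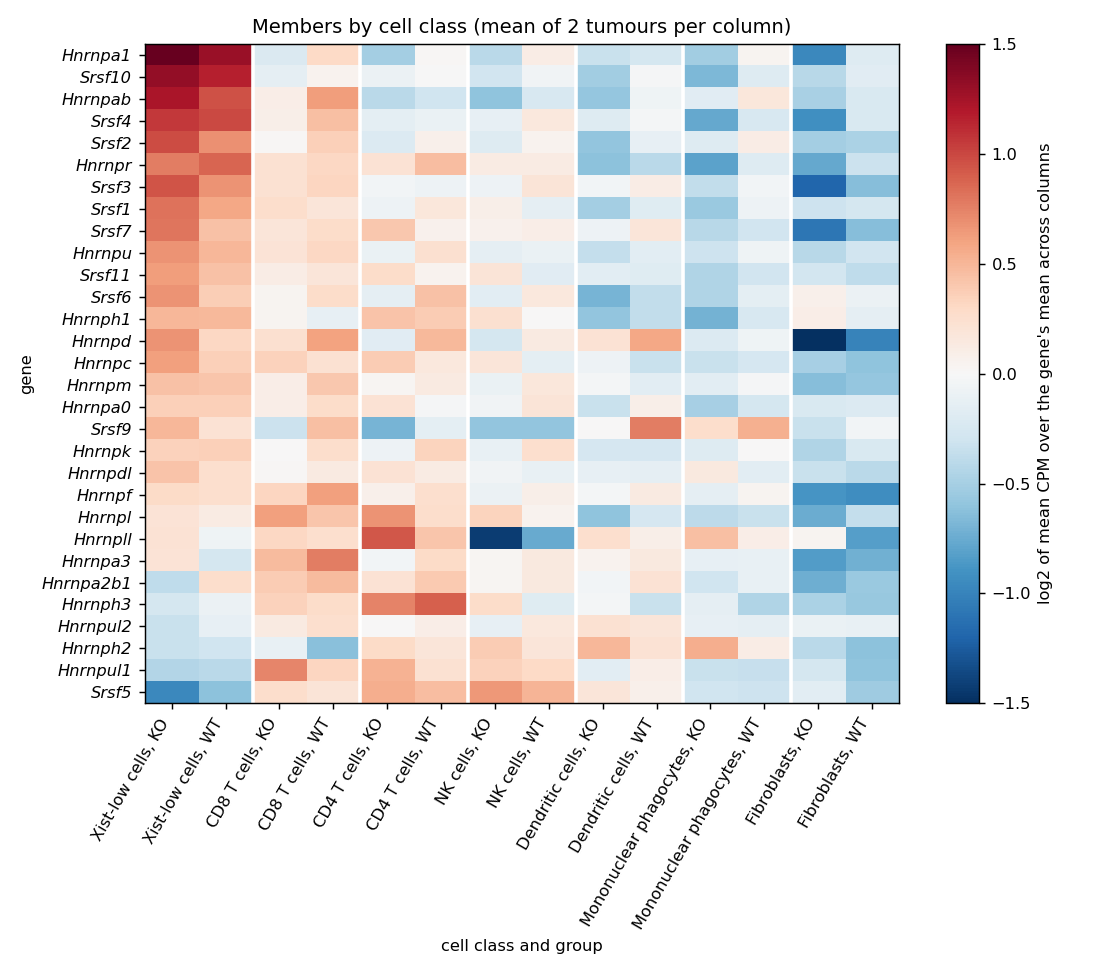
Level of 30 members (rows) in 7 cell classes, KO left of WT in each, as the log2 of the mean CPM of 2 tumours over the gene's mean across columns (red higher, blue lower). Of the members, 19 have their highest class mean in Xist-low cells, with Hnrnpa1 and Srsf10 in the top rows, and Srsf5, in the lowest row, is lowest there.

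Other genes of the splicing machinery were counted in Xist-low cells from fixed lists, where 8.45% of all 18018 genes were called, 778 of them higher, and the median over all genes was -0.01. Of 28 tested hnRNP-like RNA-binding proteins outside the name rule, 1 fell and none rose, with a median log2 fold change of 0.07. This was Cirbp, the cold-inducible RNA-binding protein, with 26.2 and 35.6 CPM in KO tumours, against 82.5 and 68.5 CPM in WT tumours (-1.29, edgeR adjusted p = 0.0158). Of 40 core spliceosome genes, 3 rose and 35 had positive values, with a median of 0.16. They were Sf3b4, a subunit of the U2 snRNP, Prpf31, a tri-snRNP factor, and Snrpa, the A protein of the U1 snRNP, at log2 fold changes of 0.58, 0.55 and 0.54 (adjusted p = 0.0336, 0.0341 and 0.0409). Snrpa held 125 and 134 CPM in KO tumours, against 94.5 and 83.8 CPM in WT tumours. None of 24 SR-related proteins, SR kinases and importins was called, and Srpk2, an SR protein kinase, came nearest (-0.37, adjusted p = 0.0857).

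Among 10 nonsense-mediated decay factors, Smg5 rose (0.48, edgeR adjusted p = 0.0380) and Smg6, the endonuclease of that pathway, fell (-0.65, adjusted p = 0.0332). Smg6 held 35.5 and 41.9 CPM in KO tumours, against 63.6 and 57.6 CPM in WT tumours. Of 16 cell-cycle genes, 4 rose, namely Tyms, Ccna2, Mcm5 and Rrm2, and 15 had positive values, with a median of 0.43, against -0.01 over all genes, of which 8.45% were called in either direction. Between low and high KO cells, no gene of these 5 lists was called by edgeR, and their medians lay between -0.03 and 0.005.

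Markers of other cells also moved in the Xist-low class. The 12 T and NK markers summed to 35.7 and 26.4 CPM in KO tumours, against 10.8 and 4.69 CPM in WT tumours, and 6 of them rose. The 13 mononuclear phagocyte markers summed to 389 and 312 CPM in KO tumours, against 267 and 111 CPM in WT tumours, with 2 that rose. Of 10 fibroblast markers 2 fell, and their sum was 1760 and 1210 CPM in KO tumours, against 2230 and 2760 CPM in WT tumours. Xist-low cluster 1 itself was marked by 3 of them, Col3a1, Dcn and Mmp2. It made up 1.28% and 1.23% of the class in KO tumours, against 21.04% and 33.19% in WT tumours. The part of this make-up, of other cell types, or of their free RNA in the members' values was not tested.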

How the data were processed

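The authors deposited raw UMI counts as whole numbers, for each gene in each barcode. Alignment was to mm10. Cell Ranger is given as 5.0.1 per the labels' protocols but as 6.1.2 per the file headers, and Seurat 5.1.0 is listed per the submitters' processing notes. Barcodes under 300 genes or 500 UMIs, or above 20% mitochondrial UMIs, were left out. Cells with the highest Scrublet scores were taken out, at a rate of 0.8% for every 1000 barcodes in the library, because Scrublet's own thresholds marked 0%, 0.01%, 3.24% and 4.36% of cells. Cells were scaled to 10000 UMIs and clustered without batch integration, with scanpy 1.11.5 in Python 3.11.15 (2000 variable genes, 30 components, 15 neighbours) and leidenalg 0.10.2 at resolution 1.0. Clusters were named from 3 or more markers found in at least 10% of cells at 2 times the level elsewhere. T and NK cells were then clustered on their own.

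Xist-low cells are all clusters whose means of Xist and of Ptprc are both below 1 UMI per 10000, whatever their markers. A class name stands for likeness in these markers, nothing more. The counts of each class were added up within a tumour, and classes with at least 50 cells in every tumour were tested between groups with edgeR 4.0.16 in R 4.3.3 (quasi-likelihood test, TMM, filterByExpr, Benjamini-Hochberg over all genes tested, threshold 0.05, two-sided). Differences between classes were tested in one fit of 8 sums with the tumour as block. Cells were also thinned to 30000 UMIs, shallower ones left out, and sums were formed by the number of Hnrnpa2b1 UMIs. With 2 tumours a group, the smallest p of an exact permutation test is 0.333. The scripts were tested on simulated data.

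Named were Hnrnpa2b1, the other A/B-type members, each member past the threshold, the 3 largest and 3 smallest changes at a mean of at least 10 CPM in Xist-low cells, the 3 largest and 3 smallest ratios between Xist-low cells and mononuclear phagocytes, and up to 8 called genes of each other list. The members, lists and cuts were chosen with earlier results of these data known. DESeq2 1.42.0, other size factors, no count filter, replicate blocks, kept doublets, a finer clustering, thinning and leaving out each tumour were alternatives. Deviations from the group mean in same-numbered tumours had correlations across genes, by class, between -0.479 and 0.009. They were lowest in Xist-low cells (-0.479) and mononuclear phagocytes (-0.456), where tumour 1 of one group tended to deviate with tumour 2 of the other. A crossed replicate block, which was not planned, set each KO tumour with the WT tumour of the other number. With it, edgeR called 4265 of 18018 genes in Xist-low cells, against 1523 without a block. The labels do not say what a number shares. Depth ranged from 114136609 to 153162562 UMIs per library. Intervals cover the spread between these tumours and counting error. RefSeq proteins were not used here, so coding sequences of GENCODE vM21 transcripts were aligned instead, with Biopython 1.88.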

Additional observations from a re-analysis of the deposited data

Results flagged for a closer look

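In 10 cases the KO-WT change of a member differed between 2 cell classes by a test of the difference itself (edgeR adjusted p under 0.05), given as Xist-low cells minus the host class on the log2 scale. Against T and NK cells these were 7 of 31 members, where 8.29% of 17722 genes were called. They were Hnrnpa1 (0.78), Srsf9 (0.76), Hnrnpd (0.73), Hnrnpa3 (0.61), Hnrnpab (0.59), Srsf6 (0.56) and Hnrnpa2b1 (-0.55). Against mononuclear phagocytes these were 3 of 30 members, where 13.7% of 17601 genes were called. They were Srsf1 (0.62), Hnrnph3 (-0.60) and Hnrnph2 (-0.57).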

How the results depend on the processing

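Over 17 settings for Xist-low cells, Hnrnpa2b1 stayed below 0. Its call was lost in cells without cycle-gene UMIs (-0.551), and without 1 tumour its log2 fold change lay between -0.773 and -0.638. Members called there numbered 2 of 30 with DESeq2, where 2710 of 18018 genes were called. Without a count filter they numbered 2 of 31, where 3897 of 30943 genes were called. With the crossed replicate block they numbered 6 of 30, 3 higher and 3 lower, where 4265 of 18018 genes were called. In NK cells they numbered 0 with DESeq2 (139 of 8536 genes called), without a count filter (741 of 18804) and with the crossed block (301 of 8536). Leaving out 1 tumour gave 0 to 1 called members in fibroblasts, in mononuclear phagocytes and in CD4 T cells, 0 to 4 in T and NK cells and 0 to 3 in CD8 T cells. The crossed block gave 2 called members of 30 in mononuclear phagocytes, where 3365 of 13822 genes were called. For the difference from mononuclear phagocytes, 5 members were called without a filter and 0 to 6 without 1 tumour, and for that from T and NK cells 0 to 10 without 1 tumour. The causes were not tested. Same-numbered tumours share only a number. With the replicate block Hnrnpa2b1 had a log2 fold change of -0.71 in Xist-low cells and 1 member stayed called there. For the A/B-type members, followed in every class (Hnrnpa2b1 in the difference from T and NK cells alone), and the others called in a difference between classes, 15 values gained and 35 lost a call, 664 did neither, and none changed sign while called. With 2 tumours a group, a member that was not called may still differ.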

Other observations

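The 2 rows with -ps names, both copies of an Hnrnpa1-like gene, carried almost no UMIs. Hnrnpa1l2-ps had 10 and 10 UMIs in Xist-low cells of KO tumours and 17 and 12 in those of WT tumours, and Hnrnpa1l2-ps2 had 2 and 3 in KO tumours and 2 and 2 in WT tumours. In T and NK cells both were at 0 in every tumour. How reads that match several copies of a gene were counted is not given in the sources used here.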
